A study of Homo sapiens with 18 samples.

Results

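The 10 genes described here signal or repair DNA double-strand breaks by end joining. They were taken from the table of raw counts by gene name: ATM, H2AFX, TP53BP1 and RIF1 for break signaling and end protection, PRKDC, XRCC5 and XRCC6 for the DNA-dependent protein kinase, and XRCC4, LIG4 and NHEJ1 for the final ligation. They are 10 of the 60668 genes listed, and all 10 passed the filter on low counts. Poly(A) RNA was measured in 18 libraries of IMR90, a wild-type primary human lung fibroblast strain, in 6 groups of 3. Irradiated cells, which become senescent, received RG7388 (IR_RG7388), HDM201 (IR_HDM201) or vehicle (IR_DMSO) starting at day 4 after irradiation, with RNA taken at day 11. Proliferating cells received RG7388 (Prolif_RG7388), HDM201 (Prolif_HDM201) or vehicle (Prolif_DMSO). Both compounds inhibit the ubiquitin ligase MDM2 and were given at different doses, so they are not compared with each other here. The replicates are, by the study's general statement for cultured cells, separate wells, so the p-values measure the spread between wells of one cell strain.

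In end joining, the Ku ring of XRCC6 (Ku70) and XRCC5 (Ku80) slides onto a broken end and recruits the kinase PRKDC (DNA-PKcs), and LIG4 with its partner XRCC4 and the related NHEJ1 (XLF) seals the break. The kinase ATM phosphorylates the histone variant encoded by H2AFX in the chromatin around the break, and TP53BP1 (53BP1) with its effector RIF1 is then held there and limits resection of the ends. Fibroblasts that become senescent after irradiation keep unrepaired breaks marked by these proteins, whose activity depends largely on phosphorylation and localization, which RNA counts do not measure.

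Total counts ran between 21609198 and 66647700 a library. MKI67, a proliferation marker, averaged 28.9 ± 9.57 CPM (counts brought to one library size using the trimmed mean of M-values, TMM) in IR_DMSO and 505 ± 51.7 CPM in Prolif_DMSO (SD, n = 3 each), and CDKN1A, a cyclin-dependent kinase inhibitor, averaged 1816 ± 95.5 CPM in IR_DMSO and 231 ± 13.2 CPM in Prolif_DMSO. In proliferating cells, CDKN1A averaged 748 ± 43.0 CPM with RG7388 and 627 ± 104 CPM with HDM201, against that DMSO level, while in irradiated cells it averaged 2109 ± 47.2 CPM with RG7388 and 1762 ± 96.3 CPM with HDM201, neither called against IR_DMSO. The 8 fibroblast markers summed to 17150 to 25320 CPM in IR_DMSO and 44000 to 49720 CPM in Prolif_DMSO. The 5 epithelial markers summed to 152 to 169 CPM in IR_DMSO and 265.5 to 282 CPM in Prolif_DMSO, nearly all of it keratins, of which KRT19 rose (0.88 ± 0.13, adjusted p = 4.01e-06) and KRT8 and KRT18 fell, while EPCAM and CDH1 averaged under 1 CPM in every group. The 4 endothelial markers summed to at most 2.97 CPM and the 4 leukocyte markers to at most 1.42 CPM in any library, and CD14 among the leukocyte markers was called higher in IR_DMSO, at 0.909 ± 0.333 CPM against 0.106 ± 0.0188 CPM in Prolif_DMSO (SD, n = 3 each). A list of 6 genes kept as a check on RNA handling held the immediate-early and heat-shock genes FOS, FOSB, JUN, EGR1, HSPA1A and HSPA1B. Their sum, most of it JUN, was 213 to 223 CPM in IR_RG7388, 199 to 210 CPM in IR_HDM201 and 256 to 267 CPM in IR_DMSO, against 341 to 382 CPM in Prolif_DMSO. In IR_DMSO over Prolif_DMSO, FOSB rose (log2 fold change 1.72) while EGR1 and JUN fell (-1.07 and -0.47). In irradiated cells 5 of the 6, all but JUN, fell with each compound. Their part in the results was not tested. By chi-square, replicate 1 of IR_DMSO and replicate 3 of Prolif_HDM201 stood apart from their groups, with a chi-square per gene of 101.5 to 103.8 and of 60.6 to 76.8 against their partners, where the other 14 pairs gave 3.79 to 46.4. By Pearson r of log2 CPM they did not stand alone. The lowest r within the group was 0.9787 for replicate 1 of IR_DMSO and 0.9752 for replicate 3 of Prolif_HDM201, but also 0.9777 for replicates 1 and 2 of IR_HDM201. Results of the 10 genes whose call changed when replicate 1 of IR_DMSO or replicate 3 of Prolif_HDM201 alone was left out are given with and without it. The neighbours and the genes of the lists were not read without these libraries.

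Promoter sequences are shown for H2AFX, which had the largest change with irradiation below, for ATM, the signaling kinase that rose, and for XRCC4, which rose with both compounds. They are the bases before the RefSeq start site that lie in no annotated exon, on GRCh38.p14, in capitals where CCAAT or GGGCGG occurs on either strand (ATTGG and CCGCCC on the strand shown).
H2AFX, chr11:119095466-119095715, minus strand: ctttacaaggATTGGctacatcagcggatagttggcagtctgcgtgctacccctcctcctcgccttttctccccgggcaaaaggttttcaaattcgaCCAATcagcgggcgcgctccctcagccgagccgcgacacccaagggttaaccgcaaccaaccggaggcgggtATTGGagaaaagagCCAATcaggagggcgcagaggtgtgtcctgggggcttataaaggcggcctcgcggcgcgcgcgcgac
ATM, chr11:108222817-108223043, plus strand: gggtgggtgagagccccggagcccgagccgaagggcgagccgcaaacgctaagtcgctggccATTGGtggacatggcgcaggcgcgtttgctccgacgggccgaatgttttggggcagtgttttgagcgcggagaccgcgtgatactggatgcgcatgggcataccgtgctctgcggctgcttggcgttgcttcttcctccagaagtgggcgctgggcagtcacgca
XRCC4, chr5:83077454-83077497, plus strand: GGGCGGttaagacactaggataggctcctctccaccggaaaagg
The H2AFX window held 4 CCAAT matches, starting 240, 153, 81 and 67 bases before the start site, and a TATAAA match at 31 bases. Of 35114 windows of 250 bases before RefSeq start sites, 32% held CCAAT, 0.874% held 4 or more, and 10.7% held TATAAA. The first of the ATM windows held CCAAT on the minus strand 188 bases before the start site, and the XRCC4 stretch, which lies between the first exons of XRCC4 and of its neighbour TMEM167A, opened with the GGGCGG that 42.6% of windows hold. RefSeq windows were found for 8 of the 10 genes, 14 partly overlapping windows in all, of which 8 held CCAAT and 8 held GGGCGG. These matches describe the letters alone.

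The first question was how irradiation-induced senescence changed these transcripts in vehicle-treated cells. In IR_DMSO against Prolif_DMSO, 3 genes rose (ATM, TP53BP1, LIG4), 6 fell (H2AFX, NHEJ1, PRKDC, XRCC5, XRCC6, RIF1) and XRCC4 was not called, by edgeR's quasi-likelihood test with the p-value adjusted over all genes by the Benjamini-Hochberg method and a threshold of 0.05. With 51.6% of all 18151 genes tested called in this comparison, 26.3% higher and 25.3% lower, 9 of 10 is to be read against a background in which a call is common. The libraries of both groups did not overlap for 9 of the 10 genes, against 61.2% of all genes. The median log2 fold change of the 10 was -0.54, against 0.05 over all genes. The plot of CPM by library shows each gene in all 6 groups.

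**Figure D1:**
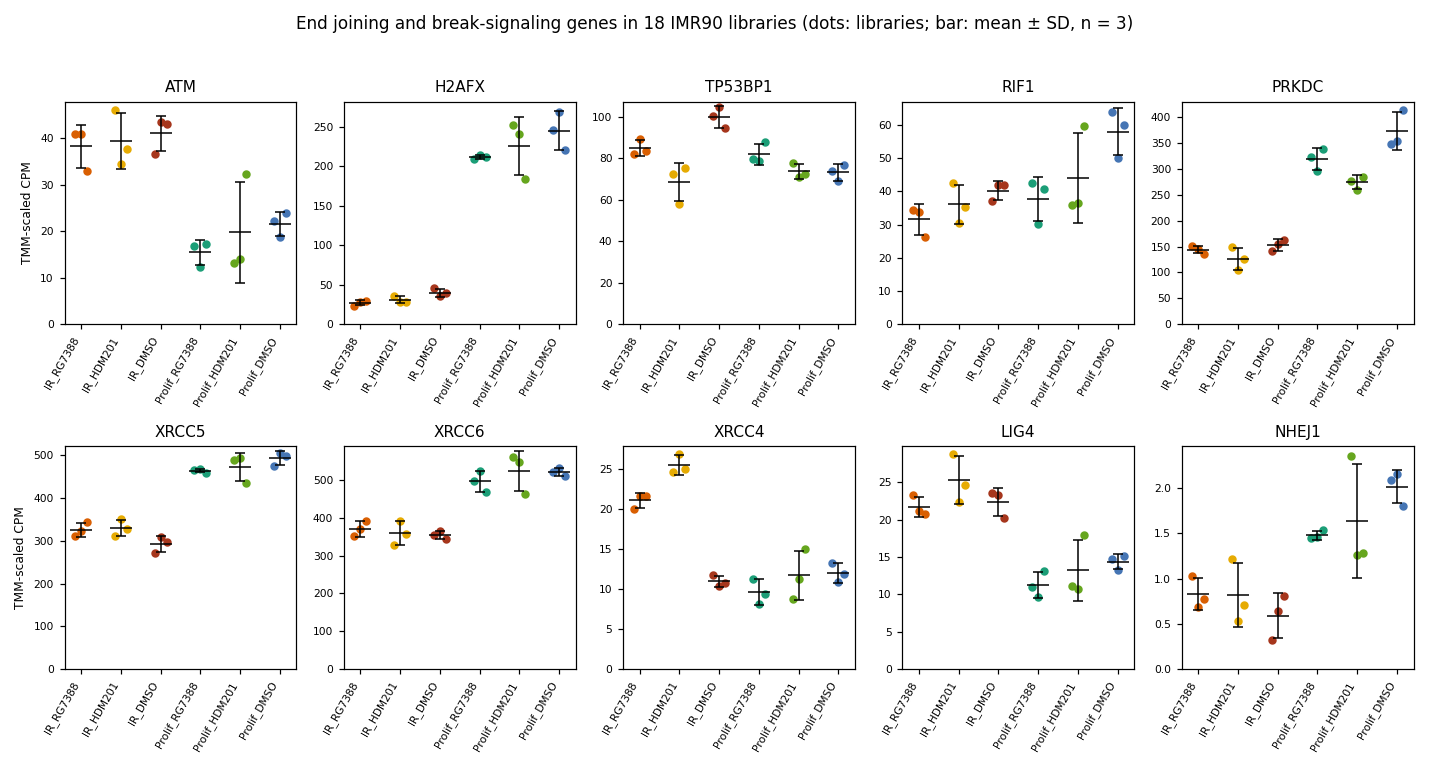
TMM-scaled CPM (y axes, starting at 0) of each gene in the 18 libraries, by group (x axes); dots are libraries and bars the mean ± SD of 3. H2AFX sits at 23.4 to 45.4 CPM in all 9 irradiated libraries and at 184 to 269 CPM in all 9 proliferating ones, and XRCC4 at 19.96 to 26.9 CPM in the compound-treated irradiated libraries and at 8.16 to 14.98 CPM in all others.

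Among the signaling genes, H2AFX (chromosome 11, 119093874 to 119095465, minus strand, hg38, annotated as H2AX in GENCODE 44) had the largest change. It was measured at 45.4, 35.5 and 39.1 CPM in IR_DMSO, against 246, 269 and 220.2 CPM in Prolif_DMSO. Every irradiated library was below every proliferating one, and the level was 6.13-fold lower (log2 fold change -2.62 ± 0.14 SE, adjusted p = 2.13e-13). H2AFX RNA is known to occur in a replication-linked stem-loop form and in a polyadenylated form, and poly(A) selection captures the polyadenylated one.

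ATM (chromosome 11, 108223044 to 108369102), the apical break kinase, moved the other way. Its level was 36.7, 43.4 and 43.0 CPM in IR_DMSO, against 22.1, 18.7 and 23.8 CPM in Prolif_DMSO, a rise of 0.93 ± 0.26 on the log2 scale (adjusted p = 0.00636) with no overlap. TP53BP1 (chromosome 15, 43403061 to 43510728), the end-protecting adaptor, was at 100.5, 105 and 94.4 CPM in IR_DMSO, against 73.8, 68.8 and 76.9 CPM in Prolif_DMSO (log2 fold change 0.45 ± 0.10, adjusted p = 0.000719). The rise of TP53BP1 was smaller than that of ATM but its libraries were as clearly separated.

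RIF1 (chromosome 2, 151409883 to 151508013), which acts downstream of 53BP1 and also sets replication timing, was at 37.0, 41.9 and 41.8 CPM in IR_DMSO, against 63.7, 49.96 and 60.1 CPM in Prolif_DMSO. Its fall of 0.53 ± 0.18 on the log2 scale was the call nearest the threshold (adjusted p = 0.0198). Leaving out replicate 1 of IR_DMSO gave an adjusted p of 0.0545, and leaving out replicate 1 or replicate 3 of Prolif_DMSO gave 0.0693 and 0.0513, so the call rests on these libraries. It was also lost with library totals as the only scaling (adjusted p = 0.358). Across 20 alternatives of processing and left-out libraries the call was lost in 8. The log2 fold change of RIF1 there ranged from -0.71 to -0.21 and the adjusted p from 9.3e-09 to 0.402.

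The 3 subunits of the DNA-dependent protein kinase fell together. PRKDC (chromosome 8, 47773111 to 47960178), the catalytic subunit, was at 141.8, 154 and 164 CPM in IR_DMSO, against 349, 354 and 415 CPM in Prolif_DMSO. This was 2.43-fold lower (log2 fold change -1.28 ± 0.11, adjusted p = 2.13e-09). XRCC5 (chromosome 2, 216107464 to 216206303) was at 271, 309 and 297 CPM in IR_DMSO, against 476, 506 and 498 CPM in Prolif_DMSO (-0.75 ± 0.09, adjusted p = 2.03e-07). XRCC6 (chromosome 22, 41621163 to 41664048) was at 355, 366 and 344 CPM in IR_DMSO, against 520.5, 532 and 511 CPM in Prolif_DMSO (-0.55 ± 0.10, adjusted p = 3.85e-05). None of the 3 overlapped between the groups, and the catalytic subunit had the larger fold change. Across 20 alternatives of processing and left-out libraries, the log2 fold change ranged from -0.82 to -0.28 for XRCC5 and from -0.60 to -0.26 for XRCC6. Both calls held, but the size of these falls depends on the processing. XRCC6 has 5 listed pseudogene copies, each at no more than 1.95 CPM in any library and at most 0.374% of the parent gene's level.

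The 3 ligation genes differed from one another. LIG4 (chromosome 13, 108207439 to 108218368), the ligase itself, was at 23.5, 23.3 and 20.2 CPM in IR_DMSO, against 14.7, 13.2 and 15.1 CPM in Prolif_DMSO (0.64 ± 0.16, adjusted p = 0.00209). XRCC4 (chromosome 5, 83077498 to 83353787), the scaffold that stabilizes the ligase, was at 11.8, 10.3 and 10.8 CPM in IR_DMSO, against 13.3, 10.9 and 11.9 CPM in Prolif_DMSO. These levels overlapped (-0.14 ± 0.15, adjusted p = 0.469, 95% interval -0.45 to 0.18). With offsets for GC content and transcript length, XRCC4 was called lower in IR_DMSO (-0.51, adjusted p = 0.000315). NHEJ1 (chromosome 2, 219069355 to 219160869), which bridges the ends with XRCC4, was at 0.319, 0.646 and 0.808 CPM in IR_DMSO, against 2.08, 2.16 and 1.80 CPM in Prolif_DMSO (-1.78 ± 0.34, adjusted p = 0.000134). The deposited FPKM gave a smaller fall, at 3.74 ± 0.450 FPKM in IR_DMSO and 6.92 ± 0.339 FPKM in Prolif_DMSO (SD, n = 3 each; -0.74 with limma on log2(FPKM + 1), adjusted p = 0.000413). NHEJ1 was the least counted of the 10, with 12 to 135 reads a library, and 2034 of its exonic bases are shared with an overlapping gene on the same strand, so its counts are uncertain.

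Whether these differences were also present under the compounds was examined in libraries of their own, IR_RG7388 against Prolif_RG7388 and IR_HDM201 against Prolif_HDM201. With RG7388, 3 genes rose and 4 fell (44% of all genes called, 21.3% higher and 22.8% lower), and with HDM201, 3 rose and 5 fell (46.5% of all genes called, 22.7% higher and 23.8% lower). The libraries of both groups did not overlap for 8 genes with RG7388 and 8 with HDM201, against 61.1% and 48% of all genes. ATM, LIG4 and XRCC4 rose in both, and H2AFX, PRKDC, XRCC5 and XRCC6 fell in both. The median over the 10 genes was -0.34 with RG7388 and -0.40 with HDM201, against 0.04 and 0.01 over all genes. The plot of log2 fold changes sets the comparisons side by side.

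**Figure D2:**
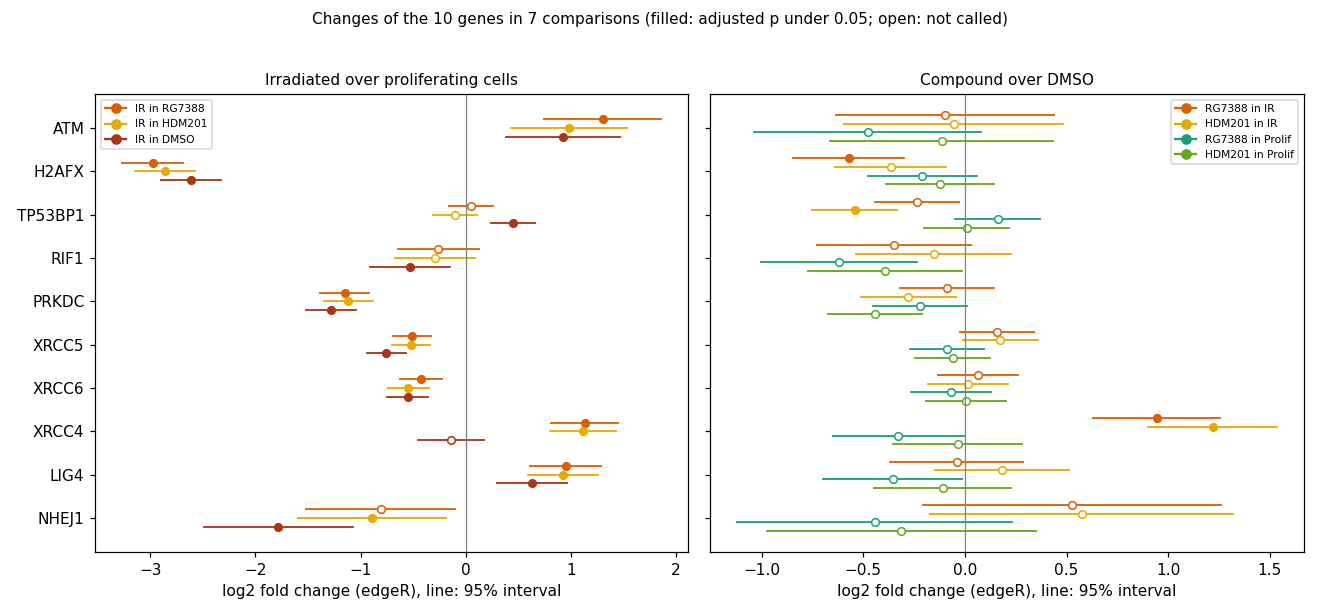
Log2 fold changes (x axes) with 95% intervals of the 10 genes (rows) for irradiated over proliferating cells (left) and compound over DMSO (right); filled symbols passed an adjusted p under 0.05. On the left, H2AFX lies between -2.98 and -2.62 in the 3 comparisons; on the right, XRCC4 in irradiated cells lies at 0.94 with RG7388 and 1.22 with HDM201 while its values in proliferating cells are open symbols.

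H2AFX was again the gene with the largest change. It was at 23.4, 27.7 and 29.7 CPM in IR_RG7388, against 209, 215 and 212 CPM in Prolif_RG7388 (-2.98 ± 0.14, adjusted p = 3.25e-14). It was at 36.1, 28.4 and 28.4 CPM in IR_HDM201, against 252, 240.5 and 184 CPM in Prolif_HDM201 (-2.86 ± 0.14, adjusted p = 7.82e-14). The groups were far apart in both comparisons, including replicate 3 of Prolif_HDM201, the lowest proliferating library for this gene.

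ATM was at 40.9, 41.0 and 32.8 CPM in IR_RG7388, against 16.8, 12.3 and 17.2 CPM in Prolif_RG7388 (1.31 ± 0.26, adjusted p = 0.000683). It was at 46.0, 34.4 and 37.7 CPM in IR_HDM201, against 13.1, 13.9 and 32.2 CPM in Prolif_HDM201 (0.98 ± 0.26, adjusted p = 0.00502). The 32.2 CPM came from replicate 3 of Prolif_HDM201, where RIF1, XRCC4 and LIG4, which like ATM have GC-poor transcripts (35.2 to 38.6% GC), were also the highest of their group. Genes with the most GC-poor transcripts (26.8 to 41.1% GC) had a median log2 fold change of 0.37 in IR_HDM201 over Prolif_HDM201 and of 0.25 in IR_DMSO over Prolif_DMSO, against 0.01 and 0.05 over all genes. With offsets for GC content and length, the rise of ATM was 0.79, 0.99 and 0.75 with DMSO, RG7388 and HDM201, and the call held in each. The call with HDM201 was lost in 1 of 20 alternatives, limma on log2(FPKM + 1) without a filter (0.83, adjusted p = 0.0515), and the deposited FPKM overlapped, at 5.28 in replicate 3 of IR_HDM201 and 6.25 in replicate 3 of Prolif_HDM201.

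The kinase subunits kept their direction with either compound. PRKDC was at 150.2, 145 and 137 CPM in IR_RG7388, against 324, 296 and 339 CPM in Prolif_RG7388 (-1.15 ± 0.11, adjusted p = 1.76e-08). It was at 149, 105 and 126 CPM in IR_HDM201, against 278, 259 and 285 CPM in Prolif_HDM201 (-1.12 ± 0.11, adjusted p = 2.74e-08). Both sets were fully separated, as in DMSO. XRCC5 fell by 0.51 ± 0.09 with RG7388 (adjusted p = 5.43e-05) and by 0.52 ± 0.09 with HDM201 (adjusted p = 4.31e-05). XRCC6 fell by 0.42 ± 0.10 with RG7388 (adjusted p = 0.000922) and by 0.54 ± 0.10 with HDM201 (adjusted p = 5.93e-05).

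XRCC4, not called in DMSO, was at 19.96, 21.7 and 21.6 CPM in IR_RG7388, against 11.3, 8.16 and 9.38 CPM in Prolif_RG7388 (1.13 ± 0.16, adjusted p = 2.63e-06). It was at 24.6, 26.9 and 25.1 CPM in IR_HDM201, against 8.79, 11.3 and 14.98 CPM in Prolif_HDM201 (1.11 ± 0.15, adjusted p = 2.44e-06). With the GC and length offsets these rises were 0.69 and 0.58, and the calls held. LIG4 was at 23.3, 21.1 and 20.7 CPM in IR_RG7388, against 10.9, 9.61 and 13.1 CPM in Prolif_RG7388 (0.95 ± 0.17, adjusted p = 5.34e-05). It was at 28.8, 22.4 and 24.6 CPM in IR_HDM201, against 11.1, 10.7 and 17.9 CPM in Prolif_HDM201 (0.93 ± 0.16, adjusted p = 5.93e-05). The same offsets gave 0.63 and 0.52 for LIG4, again with the calls held, and 0.42 in DMSO.

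TP53BP1 had no call under either compound, at 81.8, 89.1 and 83.6 CPM in IR_RG7388 against 79.4, 78.5 and 87.7 CPM in Prolif_RG7388 (0.05 ± 0.10), and at 72.4, 57.9 and 75.2 CPM in IR_HDM201 against 77.9, 70.8 and 72.2 CPM in Prolif_HDM201 (-0.10 ± 0.10). RIF1 was not called either (-0.26 ± 0.18 and -0.29 ± 0.18), but with the GC and length offsets it was lower in irradiated cells in both, by 0.68 (adjusted p = 4.54e-08) and by 0.66 (adjusted p = 6.68e-08). NHEJ1 was at 1.03, 0.681 and 0.778 CPM in IR_RG7388, against 1.44, 1.46 and 1.53 CPM in Prolif_RG7388 (-0.81 ± 0.34, adjusted p = 0.0577). The RG7388 difference passed under 6 of 20 alternatives, among them both libraries that stood apart left out (-0.82, adjusted p = 0.024). NHEJ1 was called lower with HDM201 (-0.89 ± 0.34, adjusted p = 0.0347). That call did not hold without replicate 1 of Prolif_HDM201 (adjusted p = 0.246) or without replicate 2 or 3 of IR_HDM201 (0.137 and 0.0893).

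The next question was what MDM2 inhibition did in cells that were already senescent. In IR_RG7388 against IR_DMSO, XRCC4 rose and H2AFX fell, and the other 8 genes were not called (22.8% of all genes called, 10.9% higher and 11.9% lower). In IR_HDM201 against IR_DMSO, XRCC4 rose and TP53BP1 fell, and the other 8 were not called (21.3% of all genes called, 9.96% higher and 11.3% lower). Both comparisons share the IR_DMSO libraries. The shares called, 2 of 10 in each, are near the background. The libraries did not overlap for 5 genes with RG7388 and 3 with HDM201, against 44.3% and 36.2% of all genes.

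XRCC4 was at 19.96, 21.7 and 21.6 CPM in IR_RG7388, against 11.8, 10.3 and 10.8 CPM in IR_DMSO, and was 1.92-fold higher (0.94 ± 0.15, adjusted p = 6.45e-05). With HDM201 it was at 24.6, 26.9 and 25.1 CPM, against the same IR_DMSO libraries, 2.33-fold higher (1.22 ± 0.15, adjusted p = 2.88e-06). Every treated library lay above every vehicle library. Over 20 alternatives of processing and left-out libraries each, the XRCC4 rise ranged from 0.75 to 1.07 with RG7388 (adjusted p at most 0.0037) and from 1.07 to 1.28 with HDM201 (adjusted p at most 2e-04). The epithelial marker sum moved along with it, at 361 to 422 CPM in IR_RG7388 and 286 to 401 CPM in IR_HDM201, against 152 to 169 CPM in IR_DMSO, carried by the keratins KRT8, KRT18 and KRT19, 3 of its 5 genes, which rose with both compounds, while EPCAM and CDH1 averaged under 1 CPM, and its part in the XRCC4 difference was not tested.

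H2AFX was at 23.4, 27.7 and 29.7 CPM in IR_RG7388, against 45.4, 35.5 and 39.1 CPM in IR_DMSO (-0.57 ± 0.13, adjusted p = 0.00264). In IR_HDM201 it was at 36.1, 28.4 and 28.4 CPM, which overlapped IR_DMSO (-0.36 ± 0.13, adjusted p = 0.0519). Without replicate 1 of IR_HDM201 the HDM201 difference passed (-0.49, adjusted p = 0.0222), as it did without replicate 2 of IR_DMSO (-0.45, adjusted p = 0.0382). MKI67 moved the same way, at 9.51 ± 1.38 CPM in IR_RG7388 and 12.98 ± 4.77 CPM in IR_HDM201, against 28.9 ± 9.57 CPM in IR_DMSO (SD, n = 3 each), and the part of remaining cycling cells in the H2AFX difference was not tested. In bulk RNA, fewer cells of a type and less RNA per cell cannot be told apart.

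TP53BP1 was at 72.4, 57.9 and 75.2 CPM in IR_HDM201, against 100.5, 105 and 94.4 CPM in IR_DMSO, and was 1.46-fold lower (-0.54 ± 0.10, adjusted p = 0.000401). With RG7388 it was at 81.8, 89.1 and 83.6 CPM, also below every IR_DMSO library but not called (-0.23 ± 0.10, adjusted p = 0.0972). Its RG7388 value passed under 8 of 20 alternatives, among them library totals as the only scaling (-0.42, adjusted p = 0.00379). PRKDC was at 150.2, 145 and 137 CPM in IR_RG7388 (-0.09 ± 0.11) and at 149, 105 and 126 CPM in IR_HDM201 (-0.28 ± 0.11, adjusted p = 0.0817), against 141.8, 154 and 164 CPM in IR_DMSO. The HDM201 difference of PRKDC passed under 8 of 20 alternatives, among them library totals as the only scaling (-0.42, adjusted p = 0.0131). Without replicate 1 of IR_HDM201 it passed as well (-0.41, adjusted p = 0.0155). The RG7388 difference of PRKDC passed under 3 of 20, the limma fits on log2 FPKM (-0.34 to -0.32, adjusted p at most 0.0359). The deposited FPKM of PRKDC did not overlap there, at 12.96 to 14.42 in IR_RG7388 and 16.64 to 18.15 in IR_DMSO.

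The remaining genes gave intervals around 0 in irradiated cells. ATM differed by -0.10 with RG7388 (95% interval -0.64 to 0.44) and by -0.06 with HDM201 (-0.59 to 0.48). LIG4 differed by -0.04 (-0.37 to 0.29) and 0.18 (-0.15 to 0.51), XRCC6 by 0.06 (-0.13 to 0.26) and 0.02 (-0.18 to 0.21). RIF1 differed by -0.35 ± 0.18 with RG7388 (adjusted p = 0.186) and by -0.15 ± 0.18 with HDM201, and the RG7388 difference passed with the GC and length offsets (-0.35, adjusted p = 0.000558). NHEJ1 differed by 0.53 ± 0.35 and 0.57 ± 0.36, with libraries of 0.319 to 1.22 CPM that overlapped. XRCC5 lay above IR_DMSO in all treated libraries without passing (0.16, adjusted p = 0.221, and 0.17, adjusted p = 0.171), but limma on log2(FPKM + 1) turned both directions (-0.16 and -0.10), with FPKM of 94.3, 95.9 and 98.8 in IR_RG7388, all below the 123, 102 and 99.97 of IR_DMSO, so no direction is drawn.

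In proliferating cells, 0 of 10 genes were called with RG7388 (1.54% of all genes called, 1.2% higher and 0.342% lower) and 0 of 10 with HDM201 (0.7% of all genes called, 0.545% higher and 0.154% lower) by edgeR. An unadjusted p under 0.05 was reached by 3 genes with RG7388 and 2 with HDM201, and DESeq2's Wald test called 1 in each (RIF1 with RG7388, adjusted p = 0.0348, and PRKDC with HDM201, adjusted p = 0.00998). RIF1 was at 42.5, 30.2 and 40.6 CPM in Prolif_RG7388, against 63.7, 49.96 and 60.1 CPM in Prolif_DMSO (-0.62 ± 0.18, adjusted p = 0.106). PRKDC was at 278, 259 and 285 CPM in Prolif_HDM201, against 349, 354 and 415 CPM in Prolif_DMSO (-0.44 ± 0.11, adjusted p = 0.0742). Neither gene overlapped between its groups, and 8 of the 10 genes did not overlap between Prolif_RG7388 and Prolif_DMSO, against 25.8% of all genes. Between Prolif_HDM201 and Prolif_DMSO, 1 of the 10 did not overlap, against 13% of all genes. Without replicate 3 of Prolif_HDM201, 1672 genes in place of 127 were called over the whole table, 805 of them lower, and 3 of the 10 were called lower with HDM201: ATM (-0.67, adjusted p = 0.0126), RIF1 (-0.67, adjusted p = 0.0112) and PRKDC (-0.46, adjusted p = 0.0173). With both libraries that stood apart left out, LIG4 was called lower with HDM201 as well (-0.40, adjusted p = 0.0447). ATM (-0.48, adjusted p = 0.0253) and RIF1 (-0.62, adjusted p = 0.00683) were then called lower with RG7388.

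XRCC4 was at 11.3, 8.16 and 9.38 CPM in Prolif_RG7388 and at 8.79, 11.3 and 14.98 CPM in Prolif_HDM201, against 13.3, 10.9 and 11.9 CPM in Prolif_DMSO. These levels overlapped (-0.33 ± 0.16, adjusted p = 0.376, and -0.04 ± 0.15, adjusted p = 0.966). The effect of the compound on XRCC4 differed between irradiated and proliferating cells by 1.27 ± 0.22 for RG7388 (adjusted p = 0.000352, with 7.47% of all genes called, 2.2% higher and 5.27% lower) and by 1.25 ± 0.22 for HDM201 (adjusted p = 0.000377, with 8.64% of all genes called, 2.97% higher and 5.67% lower). The effect of HDM201 on TP53BP1 also differed, by -0.55 ± 0.14 (adjusted p = 0.0158), a call lost without replicate 2 of Prolif_DMSO (adjusted p = 0.0576) or replicate 2 of IR_HDM201 (0.0579). No other gene of the 10 passed the test of this difference. Without replicate 3 of Prolif_HDM201, where 2943 genes in place of 1568 passed for HDM201, ATM (0.62, adjusted p = 0.0406) and LIG4 (0.58, adjusted p = 0.0307) passed as well.

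Because XRCC4 and LIG4 proteins work as a complex, as do XRCC5 and XRCC6, the ratio of their counts within a library was compared, which no scaling of libraries can change. XRCC4 over LIG4 was 0.500, 0.444 and 0.533 in IR_DMSO, against 0.904, 0.821 and 0.785 in Prolif_DMSO. With the compounds it was 0.858, 1.03 and 1.04 in IR_RG7388 and 0.854, 1.2 and 1.02 in IR_HDM201. The vehicle-treated irradiated libraries were thus below all others. The mean log2 ratio differed by -0.77 between IR_DMSO and Prolif_DMSO, by 0.98 between IR_RG7388 and IR_DMSO and by 1.05 between IR_HDM201 and IR_DMSO, each with p = 0.1 in a two-sided exact permutation test, the smallest that 3 against 3 allows. In the other 4 comparisons of this ratio the groups overlapped (exact permutation p of 0.3 to 0.8). XRCC5 over XRCC6 was 0.763, 0.845 and 0.863 in IR_DMSO, against 0.914, 0.950 and 0.976 in Prolif_DMSO (log2 difference -0.20, exact permutation p = 0.1), but the deposited FPKM gave 0.02, so no direction is drawn. Over the 14 ratio comparisons no p could pass 0.05.

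**Figure D3:**
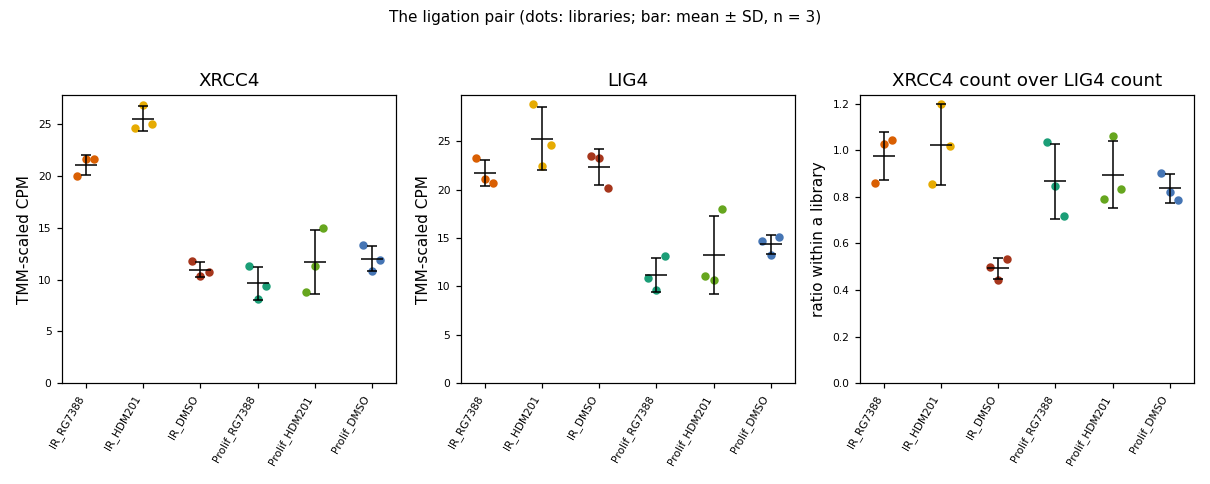
CPM of XRCC4 (left) and LIG4 (middle) and the ratio of their counts within each library (right), by group; dots are libraries, bars the mean ± SD of 3, and all y axes start at 0. The ratio lies at 0.444 to 0.533 in IR_DMSO and at 0.717 or above in every other library, with XRCC4 low and LIG4 high in IR_DMSO.

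Levels between genes were compared per length, in the deposited FPKM. XRCC6 was the highest of the 10 in every group, at 176 ± 6.65 FPKM in IR_DMSO and 216 ± 2.54 FPKM in Prolif_DMSO (SD, n = 3 each). H2AFX was at rank 2 in proliferating cells (147 ± 12.9 FPKM in Prolif_DMSO), above XRCC5 (131 ± 3.52 FPKM) with ranges of 133 to 158 and 127 to 134 FPKM that overlapped, and at rank 3 or 4 in irradiated cells (29.2 ± 2.51 FPKM in IR_DMSO). XRCC4 was at rank 6 in IR_DMSO (10.1 ± 0.253 FPKM) and at rank 3 in IR_RG7388 (18.9 ± 0.769 FPKM) and IR_HDM201 (22.5 ± 0.0722 FPKM), where H2AFX was at 18.04 ± 1.995 and 21.7 ± 3.56 FPKM, within the spread. PRKDC was at rank 4 in Prolif_DMSO (32.5 ± 1.78 FPKM), above TP53BP1 (11.8 ± 1.46 FPKM), and this order was turned in IR_DMSO, where TP53BP1 was at 20.8 ± 1.81 FPKM and PRKDC at 17.5 ± 0.797 FPKM without overlap. The lowest places were held by RIF1, LIG4, ATM and NHEJ1, between 2.38 and 8.33 FPKM on average. Their order changed between groups and with counts per kilobase of annotated exons, scaled to library totals. NHEJ1 was at rank 7 by FPKM in proliferating cells and at rank 9 or 10 in irradiated cells, but at rank 10 by these counts in every group. In Prolif_DMSO the counts per kilobase were 0.1825 for NHEJ1, against 0.52 for ATM, 1.91 for LIG4 and 3.02 for RIF1. The FPKM level of NHEJ1 is therefore not taken as comparable with theirs.

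Most of these genes start next to a gene on the opposite strand, so each was set beside its neighbour. Starts lay within 1000 bases for 6 pairs: 7 bases apart for PRKDC and MCM4, 24 for LIG4 and ABHD13, 120 for XRCC6 and DESI1, 230 for TP53BP1 and MAP1A, 365 for XRCC4 and TMEM167A and 406 for ATM and NPAT. Only the first of these pairs fell together with irradiation in all 3 treatments. MCM4, a subunit of the replicative helicase, was at 44.2, 41.9 and 40.7 CPM in IR_DMSO, against 141.7, 155 and 152 CPM in Prolif_DMSO (-1.83 ± 0.11, adjusted p = 3.12e-12), a larger fall than that of PRKDC.

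The other pairs did not move as pairs throughout. TMEM167A was at 166, 148 and 140 CPM in IR_DMSO, against 69.8, 69.9 and 77.0 CPM in Prolif_DMSO (1.07 ± 0.15, adjusted p = 4.37e-06), while XRCC4 was not called there, although both genes rose with irradiation under RG7388 and under HDM201. With the compounds in irradiated cells TMEM167A was not called (0.19 ± 0.15 with RG7388 and 0.38 ± 0.15 with HDM201), while XRCC4 rose. DESI1 rose with irradiation in each treatment (0.41 to 0.77) and with either compound in irradiated cells (0.47 and 0.37) while XRCC6 fell or was not called. NPAT, at 6.99, 14.4 and 14.98 CPM in IR_DMSO against 15.2, 13.3 and 14.2 CPM in Prolif_DMSO, was not called in any comparison, while ATM rose. MAP1A, a microtubule-associated protein gene, was at 855, 817 and 743 CPM in IR_RG7388 and 653, 529 and 659 CPM in IR_HDM201, against 394, 490 and 516 CPM in IR_DMSO (0.79 ± 0.13 and 0.40 ± 0.12, adjusted p = 5.71e-05 and 0.0257), where TP53BP1 fell or was not called, although both rose in IR_DMSO over Prolif_DMSO (0.68 ± 0.12 for MAP1A). ABHD13 rose along with LIG4 in IR_HDM201 over Prolif_HDM201 (0.60 ± 0.14, adjusted p = 0.00152) and was not called in the other comparisons. TP53BP1 also shares 3732 exonic bases with TUBGCP4 on the other strand, which fell by 1.19 ± 0.12 in IR_DMSO over Prolif_DMSO, and whether the counting used strand is not given in the sources used here.

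**Figure D4:**
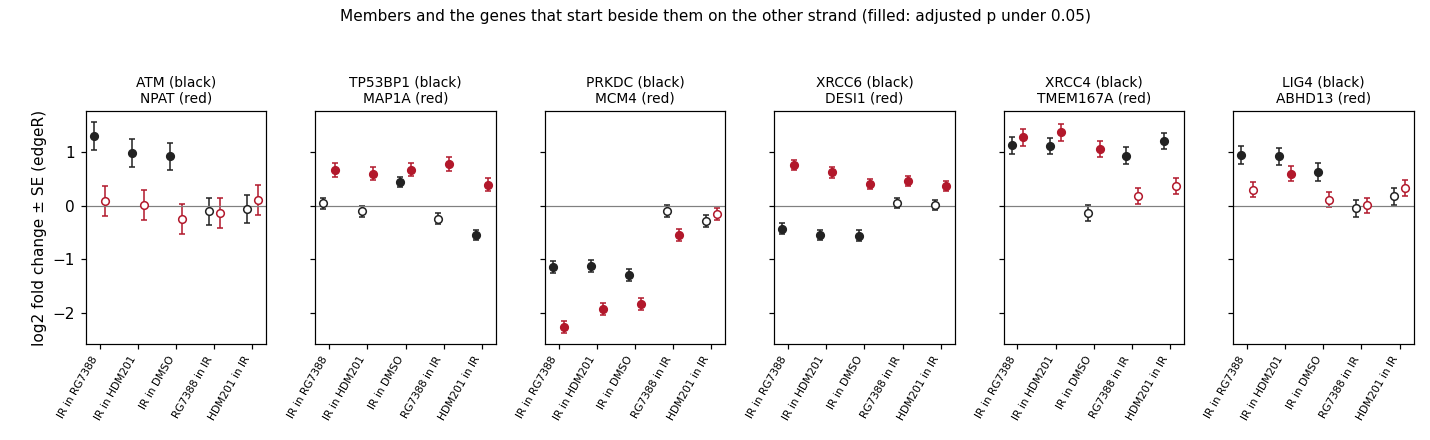
Log2 fold change ± SE (y axis) of 6 genes (black) and of the gene starting beside each on the other strand (red) in 5 comparisons (x axes); filled symbols passed an adjusted p under 0.05. PRKDC and MCM4 lie below 0 together in all 3 irradiation comparisons, whereas XRCC4 stands at -0.14 in DMSO where TMEM167A stands at 1.07, and at 0.94 with RG7388 in irradiated cells where TMEM167A stands at 0.19.

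The 3 genes whose log2 CPM followed each member most closely over the 18 libraries are a description, since the points share groups and libraries. H2AFX was followed by RACGAP1, CDC25B and MCM2 (Pearson r of 0.998, 0.996 and 0.996), genes of cytokinesis, mitotic entry and replication. ATM was followed by VPS13C, SCAF11 and XRN1 (0.991, 0.989 and 0.989), LIG4 by TBC1D23, USP15 and PCNP (0.983, 0.982 and 0.981), PRKDC by CDK5RAP2, TET3 and COL12A1 (0.985, 0.984 and 0.983) and XRCC5 by SNRPA (0.998). XRCC4 was followed less closely, by ANXA1, CYCS and STXBP6 (0.953, 0.934 and 0.934), and TP53BP1 least, by RNF213 (0.888). Among the 10, XRCC5 and XRCC6 had an r of 0.97, ATM and LIG4 of 0.969, and H2AFX and PRKDC of 0.951, while ATM and XRCC6 had -0.924 and XRCC4 and LIG4 0.735.

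Other genes of the pathway were read from 4 lists, against 51.6% of all genes called in IR_DMSO over Prolif_DMSO, 26.3% higher and 25.3% lower. Of 12 further end-joining genes, 11 were tested (all but DNTT), and 1 rose and 3 fell in IR_DMSO over Prolif_DMSO (median -0.02, against 0.05 over all genes). TDP1, which removes topoisomerase adducts from ends, fell by 1.53 ± 0.11 (adjusted p = 1.02e-10), PAXX, a Ku-binding XRCC4 relative, by 0.69 ± 0.16 (adjusted p = 0.000852) and CYREN, a Ku-binding inhibitor of end joining, by 0.51 ± 0.12 (adjusted p = 0.000685), and TDP2 rose by 0.50 ± 0.14 (adjusted p = 0.00494). Of 18 chromatin signaling genes and 53BP1 partners, 1 rose and 13 fell (median -0.59). BARD1 (-2.42 ± 0.21), the BRCA1 partner, and MDC1 (-1.99 ± 0.24), which binds phosphorylated H2AX, had the largest of the named falls, with adjusted p of 3.47e-09 and 2.71e-06. NUDT16L1 (TIRR), a 53BP1 inhibitor, rose by 0.74 ± 0.20 (adjusted p = 0.00393).

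Of 14 break sensors and kinases, 3 rose and 7 fell in IR_DMSO over Prolif_DMSO (median -0.43). CHEK1, the kinase downstream of ATR, fell by 1.51 ± 0.15 (adjusted p = 1.95e-08) and RBBP8 (CtIP), which starts resection, by 1.12 ± 0.14 (adjusted p = 4.57e-07), whereas CHEK2, the kinase downstream of ATM, rose by 0.33 ± 0.13 (adjusted p = 0.0337). Of 8 genes of alternative end joining, 7 fell and HELQ rose (median -1.30). LIG1 fell by 1.91 ± 0.12, PARP1 by 1.39 ± 0.09 and FEN1 by 2.06 ± 0.14 (adjusted p = 3.06e-12, 1.52e-11 and 3.73e-11), and HELQ rose by 0.80 ± 0.15 (adjusted p = 0.000105). All 7 falls were also called with RG7388 and with HDM201, where HELQ again rose. Several genes of these lists also serve DNA replication, and MKI67 fell along with them. The part of cycling cells in these falls was not tested.

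In irradiated cells, 22.8% of all genes were called with RG7388 (11.9% lower) and 21.3% with HDM201 (11.3% lower). The end-joining, chromatin and sensor lists were near these shares of genes called or below them. The alternative end-joining list was near them with HDM201 and above them with RG7388. Every call in the sensor list and the alternative end-joining list was lower. The lists were not tested as sets. With RG7388, the counts of genes that rose and fell were 1 and 1 of 11 in end joining, 3 and 1 of 18 in chromatin signaling, 0 and 4 of 14 in sensors and kinases and 0 and 5 of 8 in alternative end joining, and with HDM201, 1 and 0, 4 and 0, 0 and 4, and 0 and 2. CHEK2 fell to 4.79 ± 0.457 CPM in IR_RG7388 and 5.12 ± 0.673 CPM in IR_HDM201, against 11.2 ± 0.951 CPM in IR_DMSO (SD, n = 3 each; -1.24 ± 0.13 and -1.12 ± 0.13, adjusted p = 2e-07 and 1.26e-06).

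The genes that rose with both compounds included SHLD2, a shieldin subunit that acts downstream of 53BP1 and RIF1, at 34.5 ± 2.38 CPM in IR_RG7388 and 37.9 ± 0.988 CPM in IR_HDM201, against 23.3 ± 3.10 CPM in IR_DMSO (0.57 ± 0.14 and 0.71 ± 0.14, adjusted p = 0.00397 and 0.00063). UBE2N, the ubiquitin-conjugating enzyme used by RNF8, rose by 0.39 ± 0.09 and 0.55 ± 0.09 (adjusted p = 0.00272 and 9.96e-05), and TDP1 by 0.35 ± 0.11 and 0.43 ± 0.11 (adjusted p = 0.0249 and 0.00824). In proliferating cells CHEK2 averaged 7.43 ± 0.476 CPM with RG7388 and 9.64 ± 0.106 CPM with HDM201, against 8.97 ± 0.450 CPM with DMSO, and SHLD2 averaged 31.0 ± 4.08 and 31.5 ± 6.82 CPM, against 36.5 ± 2.05 CPM with DMSO (SD, n = 3 each), none of them called. The difference between states passed for CHEK2 (-0.97 ± 0.18 with RG7388 and -1.23 ± 0.18 with HDM201, adjusted p = 0.00111 and 7.23e-05) and for SHLD2 (0.81 ± 0.19 and 0.92 ± 0.19, adjusted p = 0.00953 and 0.00305).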

How the data were processed

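Poly(A) RNA was measured in 18 libraries of IMR90 cells, 6 groups of 3, which were mapped to groups by their sample labels. Per the study's methods, the authors aligned reads to hg38 with STAR in its 2-pass mode, counted reads per gene with HTSeq and computed FPKM with Cufflinks; the sources used here do not give versions, the annotation release or the use of strand. The deposited counts are raw whole numbers per gene, and the FPKM values deposited by the authors (scaled for transcript length and library size) were used for levels per length and as an alternative test on log2(FPKM + 1), with 600857 blank FPKM values set to 0.

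Of 60668 genes, 45 pseudoautosomal copies were left out and 18151 passed edgeR's filterByExpr by group. All 18 libraries entered 1 quasi-likelihood fit (edgeR 4.0.16, R 4.3.3, robust, TMM scaling, 12 residual degrees of freedom), with Benjamini-Hochberg adjustment over the 18151 genes for each of 9 comparisons. Differences between states were interaction contrasts, which do not separate cell state from length of treatment. Errors beside log2 fold changes are SE and intervals 95%. Total counts were 21609198 to 66647700 a library, and precision was lowest for NHEJ1. Ratios were compared with two-sided exact permutation tests.

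Genes were annotated from GENCODE 44, and promoters came from RefSeq (GRCh38.p14). Alternatives were library totals, other filters, only the groups compared, offsets for GC content and length, DESeq2 1.42.0, limma 3.58.1 on log2 FPKM, a replicate block, a stricter threshold and left-out libraries. The members and lists were chosen with earlier results of these data known. By rule, the text selects among all 10 members, up to 4 genes with the smallest p and up to 3 called against the majority in each list and comparison, neighbours starting within 1000 bases or overlapping, the 3 genes of highest Pearson r with each member, and CDKN1A, MDM2, MKI67 and LMNB1. Some items of the lists are not reported here.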

Additional observations from a re-analysis of the deposited data

Results flagged for a closer look

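The effect of the compound differed between irradiated and proliferating cells, by the interaction contrast of edgeR's quasi-likelihood test, for 3 results. For XRCC4 the effect of RG7388 was 1.27 ± 0.22 larger in irradiated cells (log2 scale, adjusted p = 0.000352), with all 3 IR_RG7388 libraries above all 3 IR_DMSO libraries and the proliferating groups overlapping. For XRCC4 the effect of HDM201 was 1.25 ± 0.22 larger in irradiated cells (adjusted p = 0.000377), again with 3 of 3 treated irradiated libraries above their controls. For TP53BP1 the effect of HDM201 was -0.55 ± 0.14 in irradiated relative to proliferating cells (adjusted p = 0.0158), with 3 of 3 IR_HDM201 libraries below IR_DMSO. The adjusted p of the XRCC4 differences was at most 0.00561 for RG7388 and 0.00701 for HDM201 over 26 alternatives each, whereas the TP53BP1 call was lost in 5 of 26, with an adjusted p of up to 0.12, reached with no filter on low counts, of 0.0608 with only the groups compared, and of 0.0576 and 0.0579 without replicate 2 of Prolif_DMSO or of IR_HDM201; the fifth was the stricter threshold of 0.01.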

How the results depend on the processing

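Over 90 results of the 10 genes, 1920 alternative values were computed, of which 1828 kept their side of the threshold, 24 lost a call, 68 gained one and 0 reversed a call. The rise of XRCC4 with either compound in irradiated cells and the fall of H2AFX with irradiation in each treatment were called under every alternative run. The cause of the changes below was not tested.

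For RG7388 in irradiated cells, 4 members in place of 2 were called with only the groups compared, with offsets for GC content and length (with or without the replicate block) and in each of the 3 limma fits on log2 FPKM, and the genes called were 2468 at an adjusted p under 0.01, against 4134. For HDM201 in irradiated cells, 4 members in place of 2 were called with library totals, with a filter of 1 CPM in 3 libraries and in the limma fits with the FPKM minimum, and 2211 genes at an adjusted p under 0.01, against 3861.

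For RG7388 in proliferating cells, 1 member in place of 0 was called with no filter on low counts, with only the groups compared, with the GC and length offsets (with or without the replicate block) and with DESeq2, and 2 with both libraries that stood apart left out. Genes called there were 1081 with only the groups compared, 840 with the offsets, 802 with the offsets and the replicate block, 570 with DESeq2, 161 with limma on log2(FPKM + 1), 160 with a pseudocount of 0.1, 76 without the FPKM minimum, 94 at an adjusted p under 0.01 and 1436 with both libraries left out, against 279. For HDM201 in proliferating cells, 1 member in place of 0 was called with the filter of 1 CPM, the offsets (with or without the replicate block) and DESeq2, and 4 with both libraries left out. Genes called there were 21 with only the groups compared, 493 with the offsets, 452 with the offsets and the replicate block, 301 with DESeq2, 73 with limma on log2(FPKM + 1), 57 without the FPKM minimum, 47 at an adjusted p under 0.01 and 2833 with both libraries left out, of which 56.1% were higher, against 127, of which 78% were higher.

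For the difference between states with RG7388, 2 members in place of 1 were called with library totals, only the groups compared, the offsets (with or without the replicate block) and each limma fit. Genes called were 2098 with only the groups compared, 2697 with the offsets, 2689 with the offsets and the replicate block, 775 at an adjusted p under 0.01 and 2204 with both libraries left out, against 1356. With HDM201, 1 member in place of 2 was called with no filter, only the groups compared and an adjusted p under 0.01. Genes called were 2928 with the offsets, 2866 with the offsets and the replicate block, 818 at an adjusted p under 0.01 and 3321 with both libraries left out, of which 46.4% were higher, against 1568, of which 34.4% were higher.

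Leaving out each library in turn, the members called ranged over 8 to 9 for irradiation in DMSO, 7 to 8 with RG7388 and 7 to 8 with HDM201, stayed at 2 for RG7388 in irradiated cells, and ranged over 2 to 4 for HDM201 in irradiated cells, with 4 without replicate 1 of IR_HDM201. They stayed at 0 for RG7388 in proliferating cells and ranged over 0 to 3 for HDM201, with 3 without replicate 3 of Prolif_HDM201, and for the differences between states they were 1 with RG7388 and 1 to 4 with HDM201. The genes called ranged over 8301 to 9004, 6786 to 7042 and 7376 to 9154 for irradiation in DMSO, RG7388 and HDM201, 2894 to 3617 and 3024 to 3323 for RG7388 and HDM201 in irradiated cells, 94 to 134 and 43 to 1672 in proliferating cells, and 991 to 1268 and 1127 to 2943 for the differences between states, with 1672 and 2943 both without replicate 3 of Prolif_HDM201.

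In deposited FPKM, the log2 ratio of XRCC5 to XRCC6 turned to 0.018 for irradiation in DMSO, -0.08 and -0.031 for RG7388 and HDM201 in irradiated cells and 0.013 for RG7388 in proliferating cells. Leaving out libraries, that ratio ranged over -0.003 to 0.054 for irradiation in HDM201 and -0.052 to 0.015 for RG7388 in proliferating cells. The ratio of XRCC4 to LIG4 ranged over -0.099 to 0.168 for RG7388 and -0.039 to 0.172 for HDM201 in proliferating cells, and over -0.825 to -0.694, 0.912 to 1.074 and 0.925 to 1.17 for irradiation in DMSO, RG7388 in irradiated cells and HDM201 in irradiated cells.

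Library totals as the only scaling shifted the median log2 fold change of all genes to 0.342, 0.19 and 0.156 for irradiation in DMSO, RG7388 and HDM201, and to -0.222 and -0.169 for RG7388 and HDM201 in irradiated cells. The share of calls that were higher then became 71.5%, 61.8%, 60.2%, 20.2% and 22.5% in these comparisons, against 51%, 48.3%, 48.9%, 48% and 46.8%. It became 15.1% and 15.7% for the differences between states with RG7388 and HDM201, against 29.4% and 34.4%, and 67.5% for RG7388 in proliferating cells, against 77.8%. The replicate block left the number of members called at 9, 7 and 8 for irradiation in DMSO, RG7388 and HDM201, at 2 and 2 for the compounds in irradiated cells and at 0 and 0 in proliferating cells. Replicate numbers only name the libraries, since 9 of 45 same-number pairs had deviations correlated above 0.1 and 8 of 18 libraries correlated best with one of their own number. Depth limits NHEJ1 most, with 12 to 135 counts a library.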
